A study of Homo sapiens with 7 samples.

Results

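FGF8 and FGF10 are secreted fibroblast growth factors, and the cells described here are the day 11 heart muscle cells that held transcripts of either. They were chosen on their own counts. M, the share of a cell's transcripts that came from 4 muscle genes (TNNT2, ACTN2, MYH6 and TNNI1), had to reach 0.25 times its 95th percentile in the library, which was 0.488% of the cell's transcripts. The cell also had to hold at least 2 FGF8 and FGF10 transcripts together. Transcripts were counted as unique molecular identifiers (UMIs). The rule found 878 cells, called FGF-positive here, among 3842 muscle cells and 5683 cells in the day 11 library, and among 15305 cells in the 3 single-cell libraries of the series. They were compared with the 2079 day 11 muscle cells that held 0 UMIs of both genes, called FGF-zero, while 885 muscle cells with 1 UMI were kept apart.

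The cells came from the established human embryonic stem cell line H1 and were differentiated towards heart muscle. The day 11 library carries no treatment in its labels. Its day comes from its title, while the protocol text filed with it names day 15, so comparisons between the days rest on the title. The other libraries came from day 15, after the vehicle DMSO or after CHIR, commonly short for CHIR99021, a GSK3 inhibitor that activates canonical Wnt signalling, and the labels give no dose for it. Each condition had 1 library, so no difference below has a replicate check, no p-value is given, and each interval is a 95% interval that covers counting error only. No donor-level or culture-level replicate is named.

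Fibroblast growth factors bind receptor tyrosine kinases together with heparan sulphate or a co-receptor, and the signal runs through RAS and the kinase ERK to transcription factors of the ETV group and to feedback inhibitors such as the Sprouty proteins and DUSP6. In the embryo, FGF8 and FGF10 mark the anterior second heart field, the progenitor pool behind the pharynx that adds the outflow tract and right ventricle to the heart tube. ISL1, a LIM homeodomain factor, marks second heart field progenitors more widely. TBX5 marks the first heart field and the posterior part of the second heart field, and IRX4 and HEY2 mark ventricular muscle.

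FGF8 lies on chromosome 10 from 101770109 to 101780369, and FGF10 on chromosome 5 from 44300247 to 44389420, in GRCh38 coordinates of the RefSeq annotation. Of 4 promoters that belong to a gene of the rule or to genes that stood higher in FGF-positive cells, the 250 bases before the annotated start are printed below from RefSeq (GRCh38.p14), on the strand of the gene, to show the letters behind the genes described later. FGF10 spans chr5:44389421-44389670 on the minus strand, ISL1 chr5:51383198-51383447 on the plus strand, and KCNIP2 and OGA chr10:101843801-101844050 and chr10:101818445-101818694 on the minus strand. The table used holds no FGF8 entry. Capitals mark a match to any of 6 motifs searched on both strands. The motif AGATAA stands for factors of the GATA family. Homeodomain factors were searched by CTAATG, and by the palindrome TAATTA as a further form. CCGGAAG stands for ETS factors, the family of ETV5. T-box factors were searched by GGTGTGA, and factors of the NKX family by TNAAGTG, where N is any base.
FGF10: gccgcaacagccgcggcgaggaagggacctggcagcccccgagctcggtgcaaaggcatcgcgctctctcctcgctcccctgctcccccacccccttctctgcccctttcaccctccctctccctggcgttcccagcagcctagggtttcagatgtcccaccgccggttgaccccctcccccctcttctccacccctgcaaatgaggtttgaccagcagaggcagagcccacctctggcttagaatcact
ISL1: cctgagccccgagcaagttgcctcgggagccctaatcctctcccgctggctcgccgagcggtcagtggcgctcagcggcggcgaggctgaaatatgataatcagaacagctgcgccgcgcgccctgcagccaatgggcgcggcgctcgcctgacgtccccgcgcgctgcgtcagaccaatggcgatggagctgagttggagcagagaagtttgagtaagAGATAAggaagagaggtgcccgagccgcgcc
KCNIP2: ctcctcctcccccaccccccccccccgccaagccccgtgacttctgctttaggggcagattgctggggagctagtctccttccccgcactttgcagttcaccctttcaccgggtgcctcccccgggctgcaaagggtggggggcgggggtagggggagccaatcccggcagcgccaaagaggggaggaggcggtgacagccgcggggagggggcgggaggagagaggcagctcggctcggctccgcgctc
OGA: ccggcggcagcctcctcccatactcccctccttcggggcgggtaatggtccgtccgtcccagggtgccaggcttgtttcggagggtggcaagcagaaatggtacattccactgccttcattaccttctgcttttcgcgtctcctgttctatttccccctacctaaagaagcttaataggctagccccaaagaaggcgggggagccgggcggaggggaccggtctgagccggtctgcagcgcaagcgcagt
One match was found in these 4 windows, AGATAA 31 bases before the ISL1 start, and 9.37% of 27305 promoter windows of the same length hold that motif. CCGGAAG was held by 8.82% of the windows, TNAAGTG by 8.84%, CTAATG by 5.76%, TAATTA by 4.49% and GGTGTGA by 2.72%. A match of letters is a description of the window and not a binding site.

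FGF8 and FGF10 were each held by a minority of the day 11 muscle cells. FGF8 was found in 1141 of the 3842 cells (29.7%, interval 28.3 to 31.2) at 42.0 CPM (UMIs of the gene in 1000000 UMIs of the cells), and FGF10 in 1049 cells (27.3%, interval 25.9 to 28.7) at 39.0 CPM. FGF-positive cells made up 22.9% of the muscle cells (interval 21.5 to 24.2). Among them 228 held FGF8 alone, 223 held FGF10 alone and 427 held both. At the threshold, 389 cells had 2 FGF UMIs, 219 had 3, 117 had 4, 70 had 5, and the highest cell had 25, all of FGF10. The members together held 1456 FGF8 and 1406 FGF10 UMIs.

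FGF10 was more frequent in muscle cells that held FGF8. It was present in 427 of the 1141 FGF8-holding muscle cells (37.4%, interval 34.6 to 40.3) and in 622 of the 2701 cells without FGF8 (23.0%, interval 21.5 to 24.7). After each cell was thinned to 6000 UMIs the shares were 25.5% and 16.1%. Within each quartile of UMI total the share was again higher in FGF8-holding cells, by 2.03, 1.57, 1.75 and 1.30 times from the shallowest to the deepest quartile. Within quintiles of M it was higher by 1.25, 1.41, 1.86, 1.54 and 1.61 times from the lowest to the highest. In the lowest quintile of M the shares were 48.1% and 38.4%.

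The FGF-positive cells were most frequent among muscle cells with low M. From the lowest to the highest quintile of M they made up 36.8%, 30.2%, 22.7%, 14.5% and 10.1%. Their median M was 1.10%, against 1.38% in FGF-zero cells. Just inside the M threshold (0.25 to 0.30 times the percentile) 43 of 130 cells held at least 2 FGF UMIs, and just outside it (0.20 to 0.25 times) 25 of 111 cells did. Depth differed little, with a median of 12156 UMIs and 4349 genes in FGF-positive cells and 11450 UMIs and 4235 genes in FGF-zero cells. Of the muscle genes of the rule, TNNT2 was at 0.622 times its FGF-zero level, MYH6 at 0.783, ACTN2 at 0.919 and TNNI1 at 0.991 times, which is a description, since the rule used them.

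Cells outside muscle held fewer FGF transcripts. Endoderm-like cells had FGF8 in 1.57% of 127 cells and FGF10 in 14.2%, at a median of 16545 UMIs, and 1.57% of them (interval 0.191 to 5.57) held 2 or more. Among 48 endothelial-like cells the share with 2 or more was 8.33% (interval 2.32 to 20.0), and among 1666 other non-muscle cells it was 8.88% (interval 7.56 to 10.4). The FGF10 share in endoderm-like cells was below the muscle share although those cells were deeper. FGF10 was thus also found in some endoderm-like cells, while 2 or more FGF UMIs were rare in them. Whether these UMIs were made by the cells that held them was not tested.

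**Figure D1:**
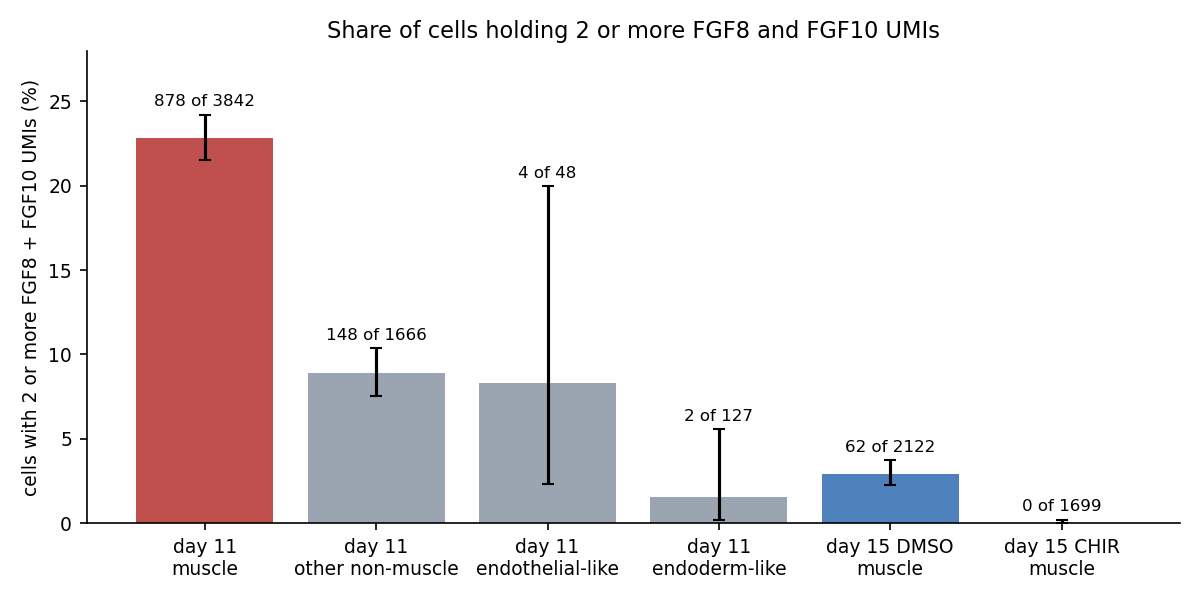
Share of cells (y axis, percent) that held 2 or more FGF8 and FGF10 UMIs, by cell class of the day 11 library and in the muscle cells of both day 15 libraries (x axis). Bars are shares and error bars exact binomial 95% intervals, with the number of cells above each bar. Day 11 muscle stands at 22.9%, the other day 11 classes at 1.57% to 8.88%, and day 15 muscle at 2.92% with DMSO and 0 of 1699 with CHIR.

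By day 15 these cells were rare with DMSO and not found with CHIR. The same rule, with the percentile taken in each library, gave 62 of 2122 muscle cells with DMSO (2.92%, interval 2.25 to 3.73). It gave 0 of 1699 muscle cells with CHIR, which allows a share of up to 0.177%. FGF8 stood at 42.0 CPM in day 11 muscle cells (interval 40.1 to 43.9), 8.77 CPM with DMSO (interval 7.74 to 9.90) and 0.318 CPM with CHIR (interval 0.145 to 0.604). FGF10 stood at 39.0, 4.52 and 0.707 CPM in the same order. Muscle cells had a median of 11750, 13344 and 15409 UMIs and of 4284, 3453 and 3822 genes in that order. The libraries with fewer FGF-positive cells were thus deeper by UMIs but had fewer genes detected in each cell. The part of this in the FGF shares was not tested. In the CHIR library 14 of 3908 cells outside muscle held 2 or more. With 1 library each, day, treatment and library cannot be told apart.

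The FGF-positive cells were set against FGF-zero muscle cells over 14591 measured genes, with 1.5-fold as a rule of size and no test. At least 1.5-fold higher were 663 genes, 4.54% of those measured, and at least 1.5-fold lower were 1003 genes, 6.87%. These shares are the background for the list counts below, and a list count near them is not a result about the list. For cells with FGF8 alone the shares were 2.54% higher and 8.79% lower, and with FGF10 alone 4.43% and 4.11%. A gene counted as measured when at least 20 UMIs were expected in the FGF-positive cells, and levels are UMIs summed over cells and given as CPM. The median log2 ratio over all measured genes was -0.01.

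The genes that stood furthest above FGF-zero cells were a mixture of matrix, membrane and LIM-domain genes. FN1, which encodes fibronectin, was at 1065 CPM in FGF-positive and 249 CPM in FGF-zero cells, a ratio of 4.27 (interval 4.14 to 4.41). ISL1 was at 72.5 against 18.9 CPM, a ratio of 3.83 (interval 3.41 to 4.3). GPC3, a glypican that carries heparan sulphate at the cell surface, was at 329 against 93.9 CPM (3.51-fold). HPSE2, a heparanase relative that binds heparan sulphate, was at 199.7 against 38.8 CPM (5.15-fold). The protease gene PRSS23 was at 472 against 107 CPM (4.41-fold), and the LIM-only genes LMO2 and LMO3 were 4.26-fold and 4.06-fold higher. ANO3, of the anoctamin family, had the highest ratio, 10.0 (interval 7.96 to 12.8), from 36.6 against 3.65 CPM. The leukotriene receptor gene CYSLTR2 followed at 8.83-fold, and LINC02712, AC002463.1, FIBIN, the lipoprotein receptor gene LRP1B, the collagen-receptor integrin gene ITGA2 and the adaptor gene DOK6 stood 3.82-fold to 5.77-fold higher.

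The genes furthest below were also a mixture, and included chamber muscle, channel, matrix and secreted-protein genes. NPPA, which encodes atrial natriuretic peptide, was at 14.1 CPM against 110 CPM, 7.81-fold lower. CORIN, the protease that activates that peptide, was at 93.5 against 370 CPM (3.96-fold lower). IRX4 was at 22.6 against 102.7 CPM, 4.54-fold lower, and the potassium channel gene KCNH7 at 209 against 845 CPM, 4.04-fold lower. CSMD1 was 8.67-fold lower, and FAM13C, the galectin gene LGALS3, AL136171.2, PLCXD3, OTOGL, TRH, the channel gene KCNQ3, the laminin gene LAMA2 and ADAMTS19 were 3.64-fold to 5.58-fold lower. SERPINA1, which encodes alpha-1 antitrypsin, was at 2.86 against 27.6 CPM. It is also a leading gene of the endoderm-like cells, where SERPINA1 led together with TTR and APOA2. Its ratio was 0.946 once cells rich in endoderm or mesenchymal markers were left out. SERPINA1 is itself among the markers that choose those cells, so this ratio was bound to the filter and decides nothing about its source. The other 29 of these 30 ranked genes stayed past 1.5-fold under each of 17 alternative settings.

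**Figure D2:**
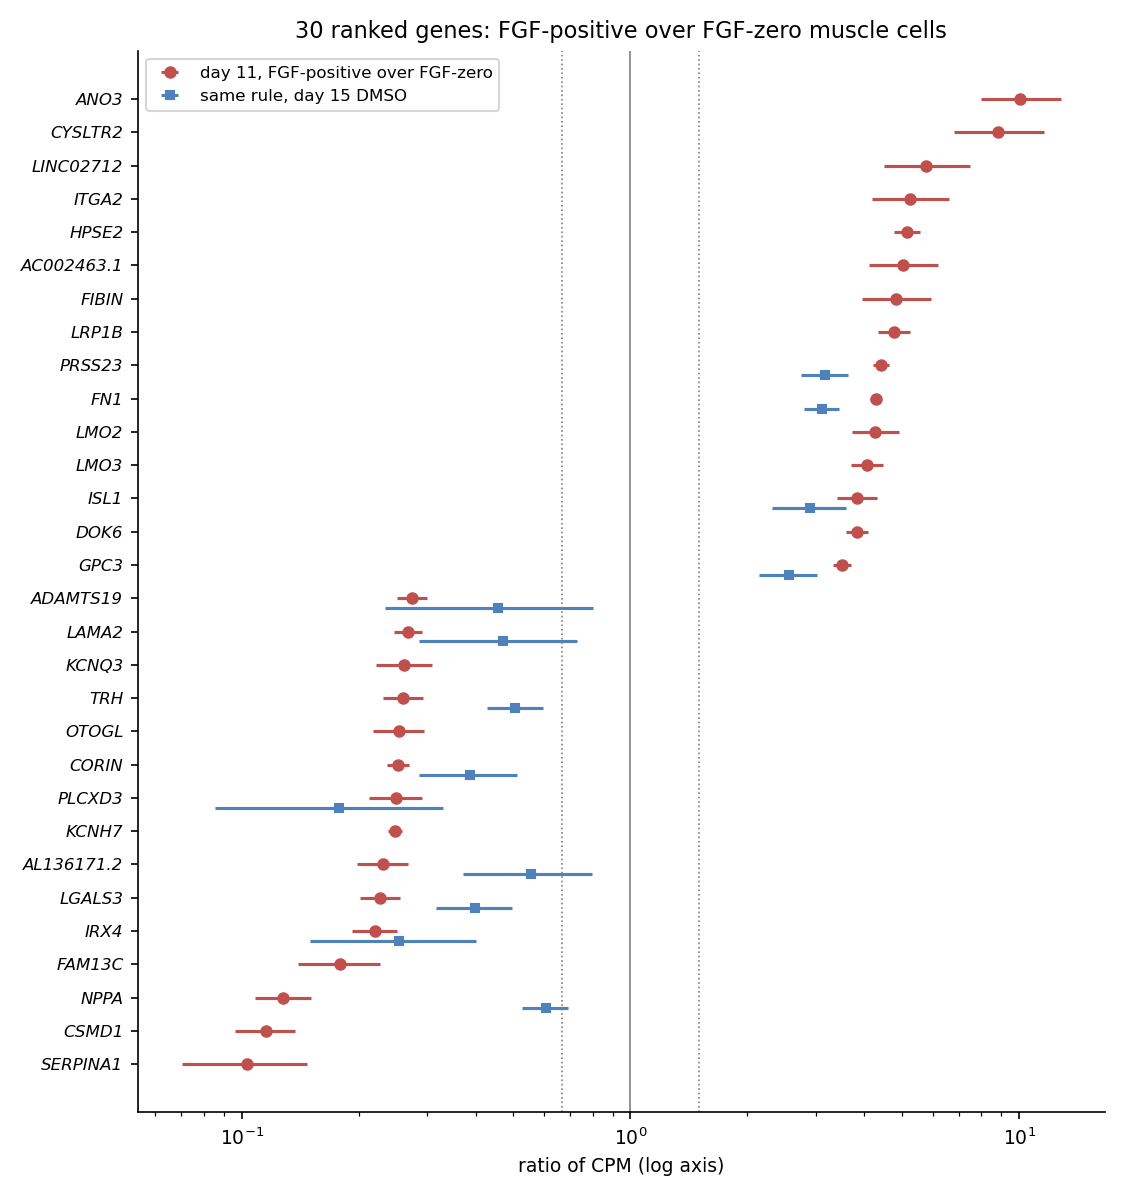
Ratio of CPM in FGF-positive over FGF-zero muscle cells (x axis, log scale) for the 15 ranked genes higher and 15 lower at day 11 (red circles) and, where measured, for the same rule in the day 15 DMSO library (blue squares). Bars are 95% intervals of counting error and dotted lines mark 1.5-fold either way. The day 11 ratios run from 0.103 for SERPINA1 to 10.0 for ANO3, and the 4 higher and 9 lower genes measured in both libraries lie on the same side in both.

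Levels of leading genes differed with the number of FGF UMIs in the cell. FN1 was at 249, 584, 915, 1016, 1144 and 1456 CPM in cells with 0, 1, 2, 3, 4 and 5 or more FGF UMIs. ISL1 was at 18.9, 41.6, 52.9, 76.4, 102 and 93.1 CPM over the same classes, and GPC3 at 93.9, 179, 258, 353, 347 and 462 CPM. In the other direction IRX4 was at 103, 56.4, 36.9, 12.9, 13.2 and 7.72 CPM, and NPPA at 110, 46.1, 16.0, 12.1, 11.9 and 13.9 CPM. TBX5 went from 193 CPM at 0 to 24.2 CPM at 5 or more. Cells with 1 FGF UMI thus stood between the FGF-zero and FGF-positive cells for each of these 6 genes. Median UMI totals of the 6 classes lay between 11450 and 12304, while the median M was 1.38%, 1.27%, 1.15%, 1.08%, 1.07% and 1.0%, so M differed along with these levels.

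**Figure D3:**
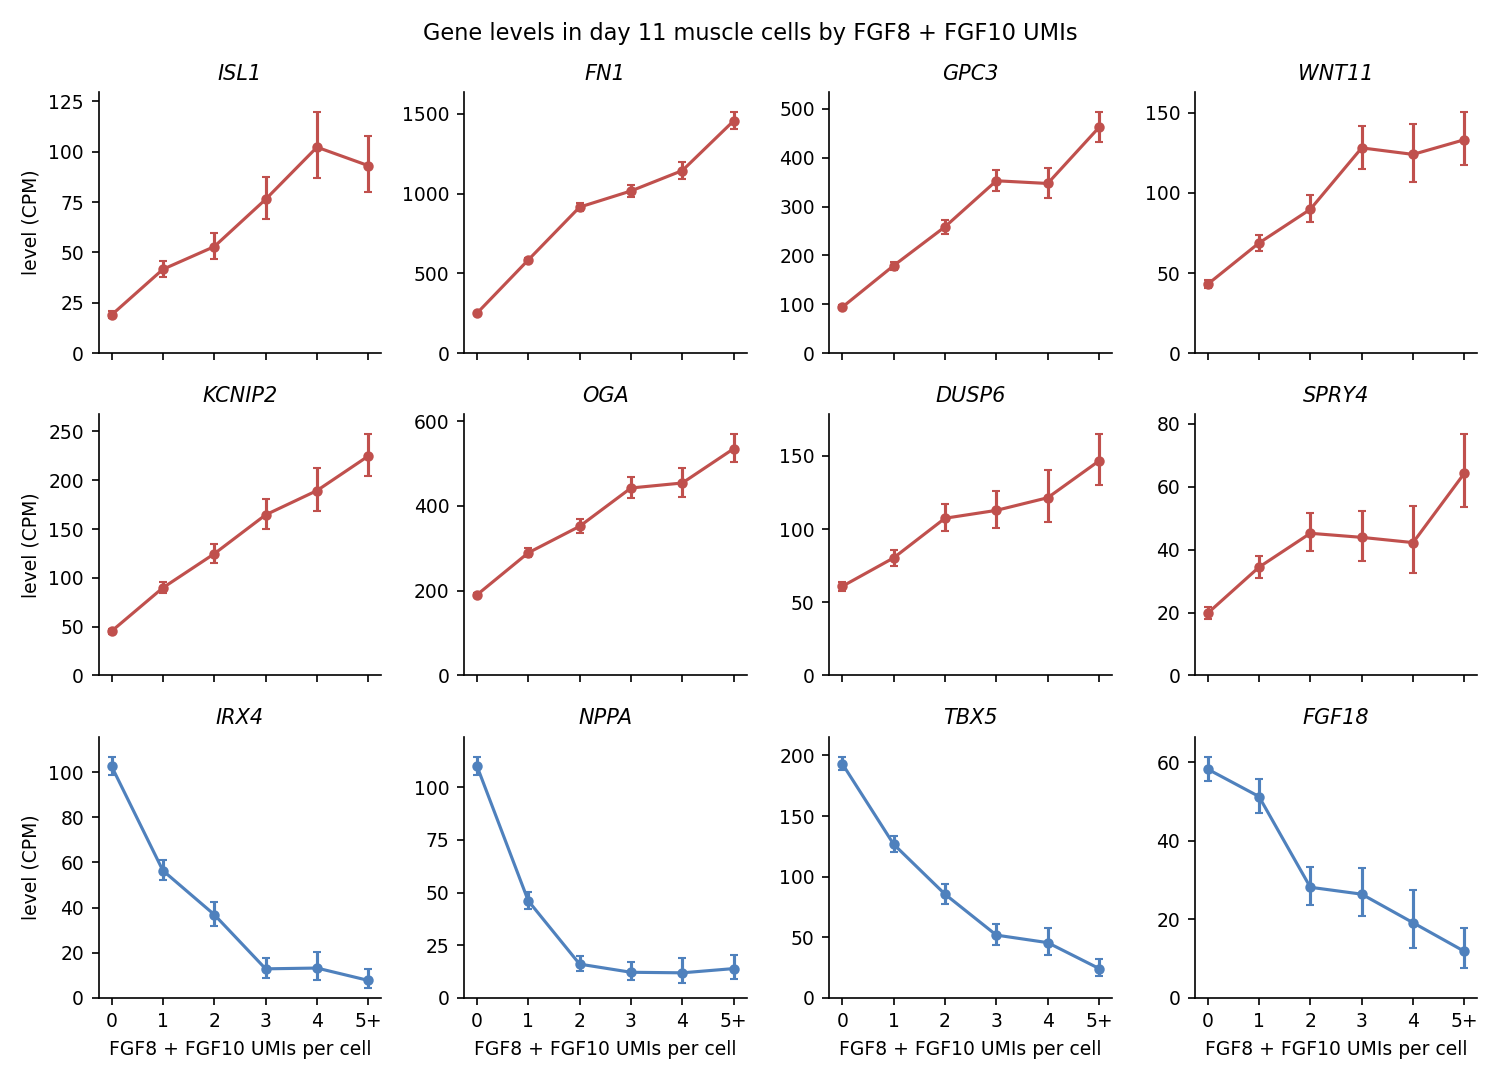
Level (y axis, CPM) of 12 genes in day 11 muscle cells grouped by their FGF8 and FGF10 UMIs (x axis, 0 to 5 or more). Points are levels of summed UMIs and bars Poisson 95% intervals. ISL1, FN1, GPC3, WNT11, KCNIP2, OGA, DUSP6 and SPRY4 (red) are higher at 5 or more UMIs than at 0, and IRX4, NPPA, TBX5 and FGF18 (blue) are lower.

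Shares of cells were also compared at equal depth. After thinning to 6000 UMIs, which left out 20 FGF-positive and 139 FGF-zero cells, ISL1 was found in 26.5% of 858 FGF-positive cells (interval 23.5 to 29.5) and 7.89% of 1940 FGF-zero cells (interval 6.73 to 9.18). Before thinning the shares were 38.8% and 13.5%. FN1 was found in 75.3% against 40.6%, IRX4 in 9.56% against 38.0%, NPPA in 4.20% against 24.1% and TBX5 in 20.9% against 59.0%. TBX2, which marks the atrioventricular canal, was found in 33.8% and 29.6%.

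Signs of other cell types were set beside these values. Mesenchymal markers summed to 762 CPM in FGF-positive and 571 CPM in FGF-zero cells, endoderm markers to 170.1 and 163 CPM, endothelial markers to 56.5 and 80.8 CPM, epicardial markers to 34.9 and 26.6 CPM, and smooth muscle markers to 1363 and 1165 CPM. Of the 7 mesenchymal markers, 2 were higher (COL1A2 and POSTN) and 2 lower (LUM and DCN). Of 5 measured endoderm markers none was higher and AFP and APOA2 were lower, at ratios of 0.0975 and 0.257, while APOA1, which made up most of their sum, was at 134 against 116 CPM. The defining endothelial genes PECAM1 and CDH5 and the endoderm gene FOXA2 were under the floor for measured genes. FN1 stood at 1019 CPM in cells with M under 0.15 times the percentile and 0 FGF UMIs, close to its level in FGF-positive muscle cells. COL1A1 stood at 1083 CPM in those non-muscle cells but at 262 and 246 CPM in FGF-positive and FGF-zero muscle cells, a ratio of 1.06. COL1A2 stood at 660 CPM there and at 248 against 102 CPM in FGF-positive and FGF-zero muscle cells, a ratio of 2.44. ISL1 stood at 42.5 CPM in those non-muscle cells, below its level in FGF-positive muscle cells.

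Leaving out the cells with many endoderm or mesenchymal transcripts kept 427 FGF-positive and 1409 FGF-zero cells and gave ratios of 7.19 for FN1, 4.42 for ISL1 and 5.13 for GPC3. Scrublet, a doublet caller, marked 1 cell of this library and so did not work in it, and 92 FGF-positive cells (10.5%) against 120 FGF-zero cells (5.77%) were among the 6% of cells with the highest doublet scores. Without the cells of highest score the ratios were 4.79 for FN1, 4.09 for ISL1 and 0.186 for IRX4. When FGF-zero cells were weighted to the same UMI totals and M as the FGF-positive cells, the ratios were 2.79 for FN1, 2.55 for ISL1, 2.48 for GPC3 and 0.237 for IRX4. Of the barcodes of this library, 6 were also in the DMSO library, 4 of them FGF-positive, and 3 were in the CHIR library.

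The FGF pathway itself was described from the ligand down. Of 20 other genes of the FGF family 8 were measured, none was at least 1.5-fold higher and 4 were lower. The 8 include FGF11, FGF12, FGF13 and FGF14, which are intracellular members of the family rather than secreted ligands. FGF18 was at 23.7 against 58.3 CPM (2.46-fold lower), FGF12, an intracellular member of the family, at 2.14 against 5.88 CPM, FGF7 at 3.57 against 6.96 CPM and FGF9 at 10.0 against 15.1 CPM. FGF9 was past 1.5-fold in 10 of the 17 alternatives. The median log2 ratio of the 8 was -0.52. FGF3, FGF17 and FGF19 were too low to compare, at 0 UMIs in the FGF-positive cells and 3, 2 and 0 UMIs in the FGF-zero cells.

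Of 13 receptor and co-receptor genes 10 were measured, and the co-receptor gene GPC3 alone passed 1.5-fold. FGFR2 was at 95.1 against 65.7 CPM (1.45-fold), FGFR3 at 20.4 against 16.7 CPM (1.22-fold) and FGFR1 at 76.8 against 72.0 CPM (1.07-fold). None of 16 transducer genes, which include FRS2, SOS1 and BRAF, was past 1.5-fold in either direction, and their median log2 ratio was -0.04.

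Response genes differed in both directions over all FGF-positive cells. Of 18 genes 16 were measured, of which 4 were higher and 3 lower (median log2 ratio 0.29). SPRY4, a feedback inhibitor of receptor tyrosine kinases, was at 47.8 against 19.8 CPM (2.42-fold), ETV5, an ETS factor downstream of FGF, at 45.7 against 21.3 CPM (2.15-fold), DUSP6, a phosphatase of ERK, at 117 against 60.9 CPM (1.93-fold), and PHLDA1 at 38.8 against 14.8 CPM (2.62-fold). DUSP6 went 60.9, 80.3, 107, 113, 121 and 147 CPM over the classes of 0 to 5 or more FGF UMIs. The lower genes were SPRY1, another Sprouty inhibitor, at 27.6 against 43.1 CPM, the ETS factor ETV1 at 83.4 against 129 CPM and the cyclin gene CCND1 at 17.0 against 29.9 CPM. SPRY1 went from 43.1 CPM at 0 to 16.0 CPM at 5 or more. All 4 higher genes were also past 1.5-fold in the cells with FGF8 alone and in those with FGF10 alone: DUSP6 was 1.83-fold and 1.95-fold, SPRY4 2.35-fold and 2.24-fold, ETV5 1.90-fold and 2.0-fold, and PHLDA1 1.97-fold and 3.71-fold. Of the lower genes, ETV1 differed most between the 2 kinds, at 68.5 CPM with FGF8 alone and 117 CPM with FGF10 alone. SPRY1 was at 30.9 and 33.4 CPM and CCND1 at 19.0 and 21.5 CPM in the same order. Of 13 response genes measured in each, 2 were lower past 1.5-fold in cells with FGF8 alone and none in cells with FGF10 alone. Over all measured genes 8.79% and 4.11% were lower in these kinds. ETV1 was past 1.5-fold in 13 and SPRY1 in 16 of the 17 alternatives.

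**Figure D4:**
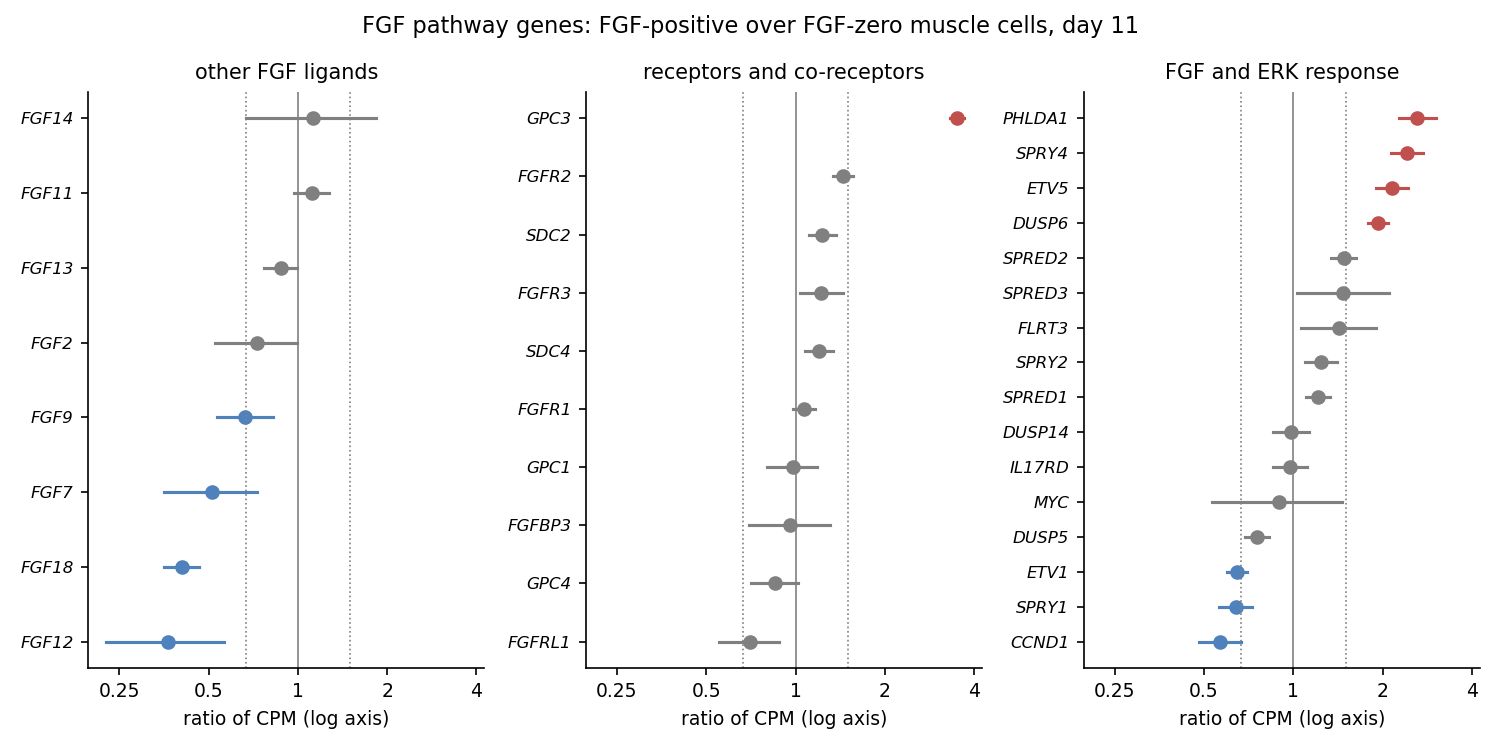
Ratio of CPM in FGF-positive over FGF-zero muscle cells (x axis, log scale) for measured FGF family genes other than FGF8 and FGF10 (the ligand panel, which includes intracellular members), receptors and co-receptors, and response genes. Bars are 95% intervals of counting error, dotted lines mark 1.5-fold either way, and red and blue mark genes past it. The 4 red response genes run from 1.93 to 2.62, and 4 of 8 FGF family genes are blue.

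Heart field lists differed in direction over all FGF-positive cells. Of 20 anterior second heart field genes 12 were measured, of which 6 were higher and 1 lower, and the list's median log2 ratio was 0.60. Among the higher genes beside ISL1 were FST, the activin inhibitor follistatin, at 127 against 39.9 CPM (3.17-fold), TCF21 at 10.4 against 4.56 CPM (2.27-fold), EYA2 at 4.20 against 0.953 CPM (4.41-fold) and TDGF1 at 7.41 against 4.68 CPM (1.58-fold). MEF2C was at 606 against 416 CPM, 1.46-fold, short of 1.5-fold. EYA1 was lower, at 6.08 against 15.1 CPM. TBX1, a T-box factor of this field, was too low to compare, at 0 and 2 UMIs. The shift of the list was not seen in cells with FGF8 alone, where 7 genes were measured, 2 of them higher and 1 lower, and the median log2 ratio was -0.05. In cells with FGF10 alone 3 of 7 were higher and 1 lower, and the median was 0.54. TCF21 was 1.30-fold higher when FGF-zero cells were weighted to the same M, and stood at 54.5 CPM in non-muscle cells without FGF.

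Posterior and first heart field genes stood lower or level. Of 15 posterior genes 10 were measured, of which none was higher and 4 were lower (median log2 ratio -0.34). TBX5 was at 61.0 against 193 CPM (3.17-fold lower), HOXB3 at 17.4 against 30.7 CPM, OSR1 at 1.79 against 3.48 CPM and ALDH1A2, which makes retinoic acid, at 4.56 against 7.42 CPM. ALDH1A2 was past 1.5-fold in 12 of the 17 alternatives. Among 13 core cardiac factors TBX5 alone was past 1.5-fold, while NKX2-5 was at 566 against 538 CPM, GATA4 at 359 against 452 CPM and HAND2 at 98.6 against 92.2 CPM.

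Of 16 outflow tract genes 4 were higher and 1 lower, and the higher genes were all secreted signals. BMP4 was at 46.0 against 16.0 CPM (2.88-fold), WNT11 at 112 against 43.0 CPM (2.60-fold), RSPO3, which enhances Wnt signalling, at 331 against 145 CPM (2.29-fold) and WNT5A at 95.9 against 49.6 CPM (1.93-fold). CXCL12 was lower, at 17.9 against 32.3 CPM. SEMA3C, a guidance cue of the outflow tract, was at 0.72 times its FGF-zero level and NRP1, its receptor, at 1.37 times. Of 10 BMP response genes none passed 1.5-fold, with ID3 at 990 against 693 CPM. Hedgehog pathway genes had 2 of 5 higher, HHIP at 7.95 against 1.20 CPM (6.62-fold) and PTCH1 at 34.7 against 22.7 CPM (1.53-fold). PTCH1 was past 1.5-fold in 13 of the 17 alternatives, and its lowest ratio was 1.34. DHRS3, a retinaldehyde reductase induced by retinoic acid, was at 32.9 against 10.1 CPM (3.24-fold).

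Many chamber and conduction genes stood lower. The ventricular list had 7 of 10 genes lower and 1, MYH7, higher (median log2 ratio -0.67). With FGF-zero cells weighted to the same UMI totals and M the median was -0.48. Of the lower genes, MYL2, CKM and IRX1 were past 1.5-fold in 12, 13 and 14 of the 17 alternatives. HEY2 was at 14.2 against 42.1 CPM (2.96-fold lower), FHL2 at 245 against 575 CPM (2.35-fold lower) and IRX2 at 12.8 against 24.7 CPM. Of 10 measured atrial genes 5 were lower and 1 higher, and of 8 sinoatrial genes 5 were lower and 1 higher. Of 6 sinoatrial genes measured in each kind, 5 were lower in cells with FGF8 alone and 1 in cells with FGF10 alone. The shares of all measured genes that were lower also differed, 8.79% with FGF8 alone and 4.11% with FGF10 alone. The pacemaker channel gene HCN4 was at 60.7 against 105 CPM. SLN, the sarcolipin gene, was the atrial gene that stood higher, at 23.6 against 6.75 CPM (3.49-fold), and it was at 60.1 CPM in cells with FGF10 alone and 14.9 CPM in cells with FGF8 alone. Among 10 atrioventricular canal genes BMP4 and RSPO3 were higher and none lower, with TBX2 at 76.5 against 64.0 CPM and TBX3 at 12.6 against 18.2 CPM.

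Most contractile genes lay within 1.5-fold. Of 21 sarcomere genes other than those of the rule, 5 were lower and 1 higher (median log2 ratio -0.19). MYL3 was at 725 against 1185 CPM, LDB3 at 276 against 494 CPM, CSRP3 at 170 against 270 CPM, TNNI3 at 72.1 against 120 CPM and MYOZ2 at 41.5 against 78.6 CPM. With FGF-zero cells weighted to the same M, MYOZ2 at a ratio of 0.551 was the only one of the 5 still past 1.5-fold, and the list's median log2 ratio was -0.084. MYH7, the slow myosin heavy chain, was at 69.7 against 42.6 CPM (1.63-fold), but was past 1.5-fold in 13 of the 17 alternatives and at 1.17 without cells rich in endoderm or mesenchymal markers. Of 10 calcium handling genes 4 were lower, among them PLN at 98.6 against 174 CPM. Glycolysis and respiratory chain genes showed no difference past 1.5-fold among 11 measured of each, and 3 of 11 fatty acid genes were lower.

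Cell cycle transcripts stood lower in FGF-positive cells as a whole and in cells with FGF8 alone, but not in cells with FGF10 alone. Of 15 measured genes 10 were lower (median log2 ratio -0.66), and cells with at least 3 UMIs of 5 cycling genes made up 4.1% of FGF-positive and 6.73% of FGF-zero cells. MKI67 was at 16.0 against 28.8 CPM, TOP2A at 15.4 against 31.7 CPM and CENPF at 27.7 against 56.1 CPM. Of 12 genes measured in each kind, 10 were lower and none higher in cells with FGF8 alone (median log2 ratio -1.69). With FGF10 alone, 1 was lower and 1 higher (median -0.09). Among all measured genes 8.79% and 4.11% were lower in these kinds. Cells with FGF8 alone held MKI67 at 5.43 CPM, cells with FGF10 alone at 34.5 CPM and cells with both at 12 CPM. In cells with FGF8 alone the level was 0.188 times that of FGF-zero cells (interval 0.107 to 0.308), and in cells with FGF10 alone 1.20 times.

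FGF8-only and FGF10-only cells were set against each other over 11156 measured genes. Higher with FGF8 were 190 genes (1.7%) and lower 883 (7.92%). A2M, which encodes alpha-2-macroglobulin, was at 114 CPM with FGF8 alone and 55.6 CPM with FGF10 alone (2.05-fold), KCNIP2 at 171 against 99.5 CPM (1.72-fold) and MYL7, the atrial myosin light chain, at 19034 against 12476 CPM (1.53-fold). Higher with FGF10 alone were MYLK, the myosin light chain kinase of smooth muscle, at 25 against 1.02 CPM, NPPB, the brain natriuretic peptide gene, at 390 against 103 CPM, and RGS4 at 47.1 against 8.82 CPM, besides the cycling genes NUSAP1, TPX2, DLGAP5 and CCNA2. TAGLN stood at 832 CPM with FGF10 alone and 301 CPM with FGF8 alone. NPPB was at 1064 CPM and TAGLN at 3172 CPM in non-muscle cells without FGF. The median M was 1.15% with FGF8 alone and 1.04% with FGF10 alone, and mesenchymal markers summed to 710.3 and 919 CPM. The part of non-muscle transcripts in this difference was not tested.

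FN1, ISL1, IRX4 and RSPO3 were closer between the 2 kinds. FN1 stood at 1044 CPM with FGF8 alone, 989 CPM with FGF10 alone and 1117 CPM with both, ISL1 at 69.9, 62.6 and 79.0 CPM, RSPO3 at 321, 300.4 and 353 CPM, and IRX4 at 26.8, 28.1 and 17.4 CPM. Against FGF-zero cells 287 of 11287 genes were higher with FGF8 alone (2.54%) and 992 lower (8.79%), and 497 of 11217 were higher with FGF10 alone (4.43%) and 461 lower (4.11%). In cells with both, 589 of 12908 were higher (4.56%) and 990 lower (7.67%). These comparisons share the FGF-zero cells.

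Some genes near FGF8 on chromosome 10 also stood higher, and these neighbours were chosen after their values were seen. Within 1 Mb of FGF8 32 genes were measured, of which 5 were at least 1.5-fold higher and 2 lower, where 4.54% and 6.87% of all measured genes were. OGA, the enzyme that removes O-GlcNAc from proteins, has its nearer end, opposite its start, 4.08 kb from FGF8 and was at 420 against 190 CPM, a ratio of 2.21 (interval 2.12 to 2.30). KCNIP2, a subunit of the cardiac transient outward potassium channel, lies 45.6 kb away and was at 161 against 45.3 CPM, a ratio of 3.55 (interval 3.29 to 3.83). KCNIP2-AS1, which overlaps KCNIP2, was 4.19-fold higher, and since no source used here states whether counting used the strand, reads of the pair cannot be told apart. PITX3 and GBF1, which overlap each other 450 kb away and so carry the same limit, were 2.53-fold and 1.52-fold higher. GBF1 did not hold 1.5-fold, with a lowest ratio of 1.40 over the alternatives, 1.33 in cells with FGF8 alone, 1.30 in cells with FGF10 alone and 1.09 at day 15. NPM3, the nearest gene, which lies between FGF8 and OGA, was at 49.0 against 50.3 CPM, a ratio of 0.974.

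OGA and KCNIP2 also stood higher in FGF-positive cells where FGF8 was not counted. FGF8 was found in 1141 muscle cells, but in 675 after thinning to 6000 UMIs, so a cell can hold FGF8 that is not counted. Whether the cells with FGF10 alone lacked FGF8 was not tested. In cells with FGF10 alone OGA was 1.97-fold and KCNIP2 2.20-fold above FGF-zero cells, and in cells with FGF8 alone 2.08-fold and 3.77-fold. Both also stood higher in the day 15 DMSO cells, OGA 1.93-fold and KCNIP2 2.84-fold. Over the 17 alternatives the ratio of OGA lay between 1.90 and 2.52 and that of KCNIP2 between 2.72 and 5.0. Near FGF10, 2 of 10 measured genes were higher, FGF10-AS1 (2.73-fold) and C5orf34 (1.62-fold, interval 0.998 to 2.60). FGF10-AS1 overlaps FGF10, a gene of the rule, and whether counting used the strand is not stated. Its reads cannot be told apart from those of FGF10, so its ratio may be bound to the rule.

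**Figure D5:**
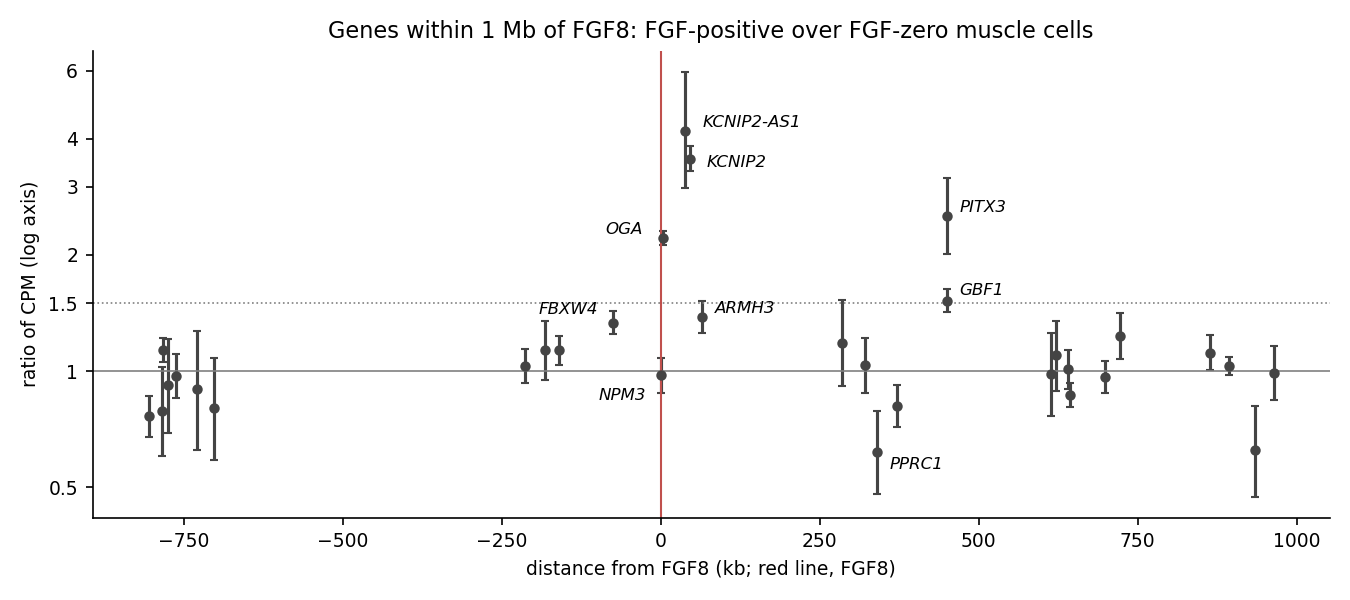
Ratio of CPM in FGF-positive over FGF-zero muscle cells (y axis, log scale) for 32 measured genes within 1 Mb of FGF8, by distance from FGF8 (x axis, kb). Bars are 95% intervals of counting error and the dotted line marks 1.5-fold. KCNIP2-AS1, KCNIP2, OGA, PITX3 and GBF1 lie above it, and NPM3, the nearest gene, lies at 0.974.

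Some of these differences were also present in the few FGF-positive cells of the DMSO library. Those cells were deeper than the FGF-zero cells there, at a median of 17981 against 13051 UMIs and 4227 against 3408 genes. Their median M was 0.953% against 1.29%. The part of depth and M in the day 15 ratios was not tested. Over 5804 genes measured in both libraries, 107 were higher at day 11 and 56 of them were also higher at day 15, which is 52.3% of the day 11 list and 32.9% of the day 15 list, where 2.93% of all genes were higher. Lower at day 11 were 218 genes, and 99 were also lower at day 15, 45.4% of the day 11 list and 29.2% of the day 15 list, where 5.86% of all measured genes were lower. All 4 measured genes of the 15 ranked higher, FN1, PRSS23, ISL1 and GPC3, were past 1.5-fold at day 15, and so were all 9 measured genes of the 15 ranked lower. ISL1 was at 80.1 against 27.7 CPM with DMSO (2.89-fold), WNT11 at 66.6 against 20.9 CPM (3.19-fold), RSPO3 at 356 against 87.8 CPM (4.05-fold), DUSP6 at 44.7 against 23.1 CPM (1.94-fold) and IRX4 at 15.2 against 59.9 CPM. NPPA was at 181 against 299.6 CPM at day 15, 0.605 times, where the day 11 ratio was 0.128. TBX5 was at 0.748 times its FGF-zero level at day 15, SPRY1 at 0.982 times and WNT5A at 1.06 times, so these did not pass 1.5-fold there. The difference between the days was not tested.

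Cells with little muscle gene content gave a further comparison. Among day 11 cells with M under 0.15 times the percentile, 95 held at least 2 FGF UMIs and 1304 held 0. Of 8925 measured genes 519 (5.82%) were higher in the former and 558 (6.25%) lower. Of the 15 ranked higher genes 7 were measured there and 6 were past 1.5-fold, and of the 15 ranked lower genes 5 were measured and 2 were past 1.5-fold. ISL1 was at 121 against 42.5 CPM (2.85-fold), RSPO3 at 61.7 against 23.8 CPM (2.60-fold) and DUSP6 at 82.8 against 47.0 CPM (1.76-fold), while GPC3 was at 267 against 319 CPM. The median M was 0.144% in these FGF-holding cells and 0.0759% in those without. Markers of other cell types moved along: all 6 measured endoderm markers were lower in the FGF-holding cells (summed to 429 against 1183 CPM), 2 of 7 mesenchymal markers were lower (2620 against 3458 CPM), and 3 of 4 cardiomyocyte markers were higher (4338 against 1605 CPM). Their part in these ratios was not tested.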

How the data were processed

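Single-cell libraries from H1-derived cardiac cells at day 11 and at day 15 with DMSO or CHIR were used. The H3K27ac and input samples were not used here. Per the labels, live cells were sorted and droplet libraries made. Per the submitters' processing notes, the tools were Cell Ranger 6.1.1 with GRCh38, R 4.1.0 and Seurat 4.3.0. The authors deposited unnormalised UMI counts for each gene in each cell, which were used unchanged. No source used here states whether counting included introns or used the strand.

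The members and gene lists were chosen with earlier results of these data known. UMIs were summed over cells, divided by their total (CPM) and compared as ratios with exact conditional binomial 95% intervals. For log2 ratios 0.5 was added to both counts. Shares have exact binomial 95% intervals, and the limit at 0 cells rests on 3 counts. Genes needed 20 expected UMIs in the FGF-positive cells. Endoderm-like and endothelial-like cells were non-muscle cells with at least 30 and 20 UMIs of their markers. Named genes were those of the lists and the 15 per direction with the most extreme interval bound, at 20 CPM or more in the higher group, leaving out genes of the rule, mitochondrial, ribosomal protein and sex-linked marker genes. The day 11 library held 75906387 UMIs, of which FGF-positive cells held 11193216 and FGF-zero cells 24136992. Scrublet in scanpy 1.11.5 gave doublet scores, and no doublets were removed from the main comparison, although it called 220 cells (5.48%) with DMSO. The calculation was tested on simulated data. Python 3.11.15, numpy 2.4.6, scipy 1.17.1, pandas 2.3.3, R 4.3.3 and edgeR 4.0.16 (TMM factors only) were used. Alternatives covered depth, M, the FGF threshold, totals, doublets, cycling cells and low counts. Leaving out cells rich in endoderm or mesenchymal markers, leaving out shared barcodes, the neighbouring genes and the comparison in cells of low M were added after the data were seen. Some genes of the lists are counted in them but not reported here by name.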

Additional observations from a re-analysis of the deposited data

Results flagged for a closer look

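TCF21, known from epicardial cells and from second heart field muscle progenitors, was 2.27-fold higher in FGF-positive than in FGF-zero muscle cells at day 11 (10.4 against 4.56 CPM) but at 0.352 times the FGF-zero level at day 15 with DMSO (14.3 against 40.8 CPM). It stands out because the single library of each day moved the opposite way. Of 5804 genes measured in both, 3 were higher at day 11 and lower at day 15 (TCF21, PLAT and TBKBP1), and 2 lower at day 11 and higher at day 15 (GNG11 and LGALS1), all but TCF21 being outside the gene lists. The difference between the libraries was not tested. The day 11 ratio was 1.42 without cells rich in endoderm or mesenchymal markers, 1.34 without the highest doublet scores and 1.30 with FGF-zero cells weighted to the same UMI totals and M, each short of 1.5-fold.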

How the results depend on the processing

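The counts of genes past 1.5-fold lay within 1.5 times of 663 and 1003 under 16 of 17 alternatives, and were 1288 and 1982 when genes expected at 5 UMIs were admitted, which tests 18088 genes. The share of FGF-positive cells was 18.7% at 0.5 times the percentile, 12.7% with at least 3 FGF UMIs, 11.4% and 10.6% with at least 2 UMIs of FGF8 and of FGF10 and 11.3% after thinning with cells chosen again. FGF10 was in 25.5% of FGF8-holding cells after thinning. Median log2 ratios were recomputed for 6 lists. For outflow genes they moved from 0.19 to 0.32 with FGF8 at 2 UMIs and to 0.084 with cells weighted on UMIs and M. For sarcomere genes they moved to -0.084 with cells weighted on UMIs and M, -0.12 at 0.5 times the percentile and -0.29 with FGF8 at 2 UMIs, and for ventricular genes to -0.44 at 0.5 times the percentile, -1.24 with 3 FGF UMIs and -1.28 with FGF8 at 2 UMIs. For posterior genes they were -0.51 with cells weighted, -0.52 without the highest doublet scores and -0.10 without cells rich in endoderm or mesenchymal markers. None of these 6 medians (response, anterior, posterior, outflow, ventricular and sarcomere genes) changed sign under these alternatives, and those of the other lists were not recomputed.

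Of 96 list genes past 1.5-fold outside the ranked 30, 49 stayed past it under all 17 alternatives. Ratios crossed 1 for CDK1 (1.24), CCNB1 (1.06) and RRM2 (1.04) without cycling cells, a choice that removes their transcripts, and for CCNA2 (1.01) with FGF10 at 2 UMIs. Without cells rich in endoderm or mesenchymal markers they crossed for APOA2 (1.17), AFP (1.56), LUM (1.04) and STMN2 (0). APOA2, AFP and LUM are among the markers that this filter counts, so their ratios there were bound to the filter. Without the highest doublet scores LUM was 1 and STMN2 0.239. WT1 was 0.910 and STMN2 0.979 with cells weighted, WT1 0.892 and STMN2 0.958 at 0.5 times the percentile, and WT1 0.821 and PLVAP 1.23 at 0.15 times. PLVAP was 1.07 after thinning and 1.12 as a mean of per-cell CPM. Other than where a setting removes the cells or transcripts in question, the cause was not tested. No paired analysis was possible because each single-cell condition had 1 library, and the replicate numbers belong to the chromatin samples, which were not used. The depth of 62 cells at day 15 limits that comparison to 5805 genes.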

Other observations

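Genes outside the rules above, chosen after their values were seen, also stood higher in the FGF-positive cells. A2M was at 98.8 against 30.8 CPM at day 11 (3.21-fold) and had a ratio of 7.01 at day 15 with DMSO (interval 5.84 to 8.38), the first of the day 15 genes ranked by the lower bound of the ratio. OTX2, a homeodomain factor best known from the anterior head, was at 15.2 against 2.65 CPM at day 11, a ratio of 5.73 (interval 4.27 to 7.76), and over the 17 alternatives its ratio lay between 3.68 and 10.5. At day 15 its ratio was 5.99 (interval 1.43 to 19.1), but OTX2 was under the floor for measured genes there, so that ratio rests on few UMIs. OTX2 was at 2.54 CPM in cells of low muscle content without FGF. In the day 15 cells SLN was 5.29-fold and CCDC80 3.40-fold higher, and HAMP, the hepcidin gene, was at 18.5 against 125 CPM.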
